A study of Mus musculus with 8 samples.

Results

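The peaks described here are short binding sites of tagged RBM45 that were found in both wild-type replicates and lie deep inside the first intron of a protein-coding gene. They were chosen by position alone. A peak of the authors' shared list qualified where it was at most 100 bp wide and its midpoint lay in intron 1 of the gene's basic GENCODE M21 transcript with the longest coding sequence. The midpoint also had to lie on the strand of the gene, in no exon of the basic set, and over 100 nt from any splice site. Of 16399 shared peaks, 3503 met this rule (21.4%, Wilson 95% interval 20.7% to 22%). They make up 27.7% of the 12651 shared peaks of that width that lie equally deep in any intron, and the other 9148 lie in later introns.

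The series holds 8 iCLIP libraries in 4 groups of 2, named Mettl3 KO CLIP, Mettl3 KO input, WT CLIP and WT input. All come from mHiPPoE-2, a transformed mouse hippocampal neuron cell line of strain Crl:CFW(SW)-024, and the cells of every group were transduced with a lentivirus that expresses FLAG-HA-tagged mouse RBM45. The protein measured is therefore the added, tagged one, in a single line. Only the 2 WT CLIP libraries, made with a rabbit monoclonal antibody against the HA tag, have peak lists that were used here, so no genotype or input comparison is made. The labels do not say that the 2 replicates are separate cultures, so the spread between them may be technical, and the intervals and p-values below describe peaks and genes within these libraries.

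RBM45 is an RNA-binding protein with several RNA recognition motifs that is expressed in developing brain and is found in the inclusions of motor neuron disease. iCLIP crosslinks protein to RNA with ultraviolet light, recovers the protein with an antibody and sequences the RNA fragments bound to it. The first intron is usually the longest of a gene, it is transcribed first, and it often carries enhancers and sites of recursive splicing.

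The peaks were spread over 1805 genes, and most of these genes had a single peak. The counts were 1125 genes with 1 peak, 680 with at least 2, 137 with at least 5 and 17 with at least 10. The 137 genes held 1000 of the peaks (28.5%). A first intron with deep length (over 100 nt from splice sites and outside exons) held a peak in 9.67% of 18667 cases, against 4.26% of 143350 later introns. First introns are longer, with a median of 3.21 kb against 1.58 kb for later introns, and those that held a peak had a median length of 24.8 kb.

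Sequence was readable for only 78 of the first-intron peaks (2.23%), because it had to come from GENCODE M21 transcripts (GRCm38, the same assembly as mm10) that cover the intron. Strong readable peaks from 10 genes are shown by their central 30 bases, to set the letters under the protein beside the folds. Sequences run 5′ to 3′ on the strand of the gene, with T for U. Capitals mark TTTTT and GAC, the runs of U and the triplet that were searched.
Rbm15 (chr3:107327409-107327438, minus strand): atcttgaaggtggtaaccTTTTTgtGACtg
Lsm7 (chr10:80854863-80854892, minus strand): gGACgtgggcatgcaGACagaaatgcaGAC
Numbl (chr7:27260505-27260534, plus strand): atctGACttctctgaaactctagtctatta
Fpgt (chr3:155092091-155092120, minus strand): agtcaagtgcattagtgagaaggggggaag
Washc3 (chr10:88201639-88201668, plus strand): ttGACtcacacaagattcagaaaaacaaat
Slc35a2 (chrX:7884625-7884654, plus strand): tatgggtGACtgtggctggggtcctggatt
Abl1 (chr2:31706873-31706902, plus strand): acttagcaGACcagattgggtggatgGACa
Zfp7 (chr15:76880308-76880337, plus strand): ctcgttgttcagttgaatgtgtggcctatg
Zfhx2 (chr14:55090414-55090443, minus strand): ggtcaccccgtggcTTTTTcttcacTTTTT
Gm20604 (chr12:102744877-102744906, minus strand): cactgttttgggatccgctctcgtacaaga
The Fpgt and Gm20604 letters were read from transcripts of the other strand. Rbm15, an adaptor of the m6A writer complex, had folds of 15.4 in replicate 1 and 13 in replicate 2, and its 79 bp peak held 3 GAC and 1 TTTTT. Lsm7, a subunit of the ring that binds the end of U6 snRNA, had folds of 16.8 and 9.28, with 3 GAC in its central 30 bases. Abl1, a tyrosine kinase, had folds of 4.72 and 4.53 and 3 GAC in its 70 bp peak. Of the other 7, Numbl was the strongest with folds of 11.2 and 7.21, and Gm20604 the weakest with 3.74 and 6.19. Neither motif stood in the peaks of Fpgt, Zfp7 and Gm20604.

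Motifs were counted on the strand of the gene, in each peak and in windows as wide as the peak that lie 500 nt to either side of it, where these could be read. UUUUU stood in 10 of 55 first-intron peaks (18.2%) and in 3 of 85 windows (3.53%). The count was higher in the peak than in its windows for 10 peaks and lower for 2 (exact sign test, two-sided, p = 0.0386, adjusted p = 0.193 over 5 motifs), so the difference did not pass the correction. DRACH, the consensus around m6A sites (where D stands for any base but C, R for a purine and H for any base but G), stood in 49.1% of peaks and 38.8% of windows (exact sign test, adjusted p = 0.352). GAC, which can lie inside DRACH, stood in 36.4% of peaks and 36.5% of windows (exact sign test, adjusted p = 0.910). UGU stood in 61.8% of peaks and 51.8% of windows (exact sign test, adjusted p = 0.352), and GACGAC stood in none of either. In 297 later-intron peaks UUUUU stood in 8.08%, against 7.09% of their windows, and DRACH in 54.2% against 47.2% (exact sign test, adjusted p = 0.0148). The readable peaks are few and lie where another transcript covers the intron, so these shares do not extend to the rest.

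Both classes are limited to 100 bp by the rule, and within that limit most first-intron and later-intron peaks were weak. The width was the least that the peak caller gave, 30 bp, in 70.0% of first-intron peaks and 72.7% of later-intron peaks. The authors' fold is the pileup over the peak caller's background, and the lower of the values in the 2 replicates ranks peaks here. Its median was 1.92 in first introns and 1.91 in later introns. The mean log2 of that fold was 1.17 in first introns and 1.15 in later introns, a difference of 0.02 ± 0.017 (SE over genes, p = 0.261, n = 3503 and 9148 peaks). At least 5-fold in both replicates were 116 first-intron peaks (3.31%) and 291 later-intron peaks (3.18%), and at least 10-fold were 14 and 39. Within the width limit, the highest lower fold was 23.4 in a first intron and 40.5 in a later one. The 139 wider deep first-intron peaks, left out by the rule, had a median lower fold of 6.49. The lower −log10 p of the authors had a median of 2.92 in first introns and 2.88 in later introns, close to the least value of 2.31 that occurs in either class.

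The strongest first-intron peak of the set, and its only one at least 20-fold in both replicates, lay in Acer3, which encodes an alkaline ceramidase. Its folds were 23.4 in replicate 1 and 29.1 in replicate 2, at chr7:98267574-98267604 on the minus strand. It stood 41.8 kb into an intron of 43.1 kb, near the 3′ end, and Acer3 had no other peak of the set. Kcnip4, a potassium channel interacting protein, came next with folds of 16.5 and 22.5, at 737 kb into an intron of 1015 kb.

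Other strong peaks lay in genes of varied function. Fbn1, which encodes the microfibril protein fibrillin 1, had folds of 15.9 and 17.1 at 4.46 kb into its first intron. Taok3, a protein kinase of stress signalling, had folds of 18.03 and 14.8 in an intron that precedes the start codon. Cacul1, a cullin-domain protein, had folds of 21.5 and 15.6. Replicate 1 was the higher in Taok3 and Cacul1, and replicate 2 in Acer3, Kcnip4 and Fbn1.

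Prrx1, a homeobox factor of mesenchyme, had folds of 25.3 in replicate 1 and 13.4 in replicate 2. Dpysl3, a collapsin response mediator of axon growth, had folds of 13.8 and 17.5, with its peak 874 nt from the 3′ splice site of a 74.2 kb intron. Dcakd had folds of 15.2 and 19.5, but its 10 peaks all lie under Gm26668, a long noncoding RNA gene of the other strand. How strand was given to peaks is not stated in the sources used here, so peaks under genes of both strands cannot be told apart by gene.

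Across all first-intron peaks the replicates gave a loose ranking. The folds lay within 2 times of each other in 91.2% of the peaks, but every peak had to be called in both lists, and most folds lie near the least value of 1.81. Spearman's rank correlation between replicates was 0.41 over 3503 peaks, a description across sites that share the same 2 libraries.

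**Figure D1:**
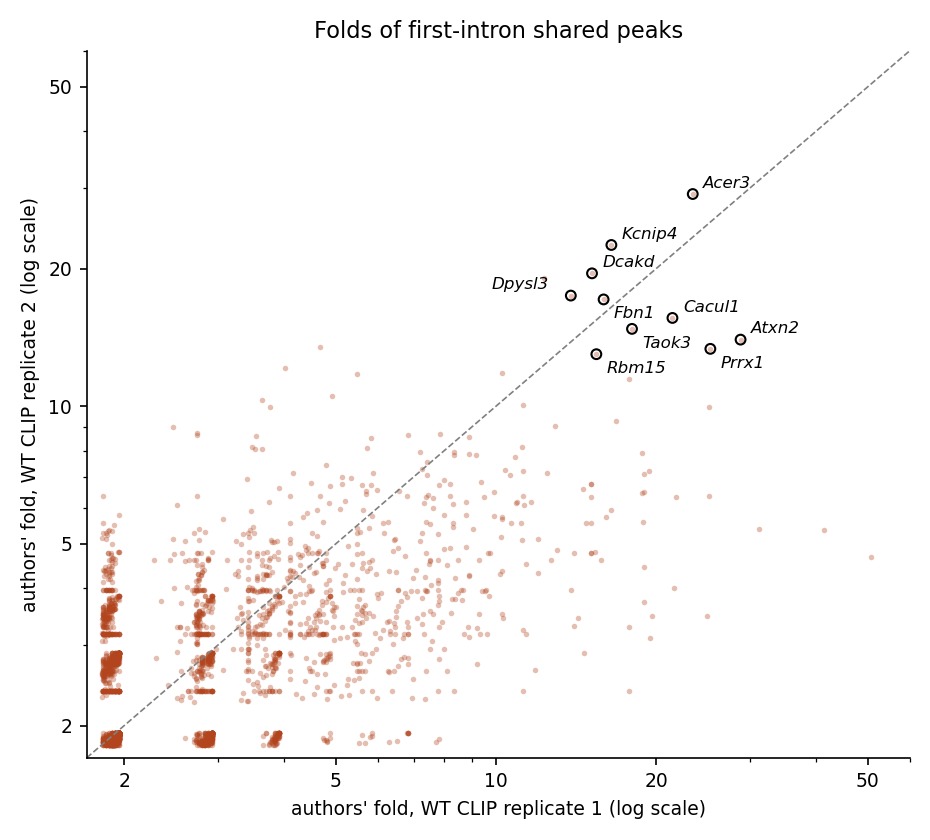
Each point is 1 of 3503 first-intron shared peaks, by the authors' fold in WT CLIP replicate 1 (x axis) and replicate 2 (y axis), both log scales; the dashed line marks equal folds. Most points lie at the lower left, in bands near the least fold, and the 10 labelled peaks reach at least 13-fold in both replicates.

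The genes with most first-intron peaks were led by Ext1, a polymerase of heparan sulfate. It had 41 peaks in an intron of 237 kb, or 173 per Mb, and 35 of them lay in the 5′ 50% of the intron. Their lower folds ran from 2.29 to 8.13 with a median of 3.80, above the median of 1.92 over the whole set. A further 5 shared peaks there are over 100 bp wide and are left out by the rule. The replicate lists alone held 109 (replicate 1) and 144 (replicate 2) peaks in that intron. Given the peaks of the whole gene, its length predicts 36.5 shared peaks there, and the count did not differ from that after adjustment (exact binomial test, adjusted p = 1).

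Signalling genes were among them. Prkce, protein kinase C epsilon, had 19 peaks in 185 kb, with lower folds from 1.82 to 3.18. Pde4d, a cyclic AMP phosphodiesterase, had 17 in 623 kb, of which 5 lay in the 5′ 50%. Smad3, the transcription factor downstream of TGF-beta receptors, had 12 in 89.5 kb with a median lower fold of 3.32. Of the Smad3 peaks, 5 lay from 7160 nt to 9664 nt into the intron, 6 from 40285 nt to 42110 nt and 1 near its end. Those of Prkce ran from 5.94 to 151 kb, and those of Pde4d from 87.0 to 599 kb.

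Genes of adhesion and the cell cortex were also among them. Kirrel3, an adhesion molecule of the immunoglobulin family, had 17 peaks in 450 kb, and Nhs, a regulator of actin, had 17 in 283 kb. Ank3, ankyrin G of the axon initial segment, had 12 in 274 kb. The median lower folds were 1.87 in Kirrel3, 1.87 in Nhs and 1.90 in Ank3, close to that of the set.

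Cmss1 (18 peaks) and Filip1l (14 peaks) stand opposite each other, and 17 and 14 of their peaks are the same intervals on both strands. Acadsb, an acyl-CoA dehydrogenase of isoleucine breakdown, had 12 peaks in 13.7 kb, all under the overlapping gene Fgfr2 of the other strand. The gene that these peaks belong to cannot be told apart. In the whole set 61 peaks (1.74%) stood on both strands and 159 (4.54%) lay under a gene of the other strand, against 118 (1.29%) and 407 (4.45%) of later-intron peaks.

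**Figure D2:**
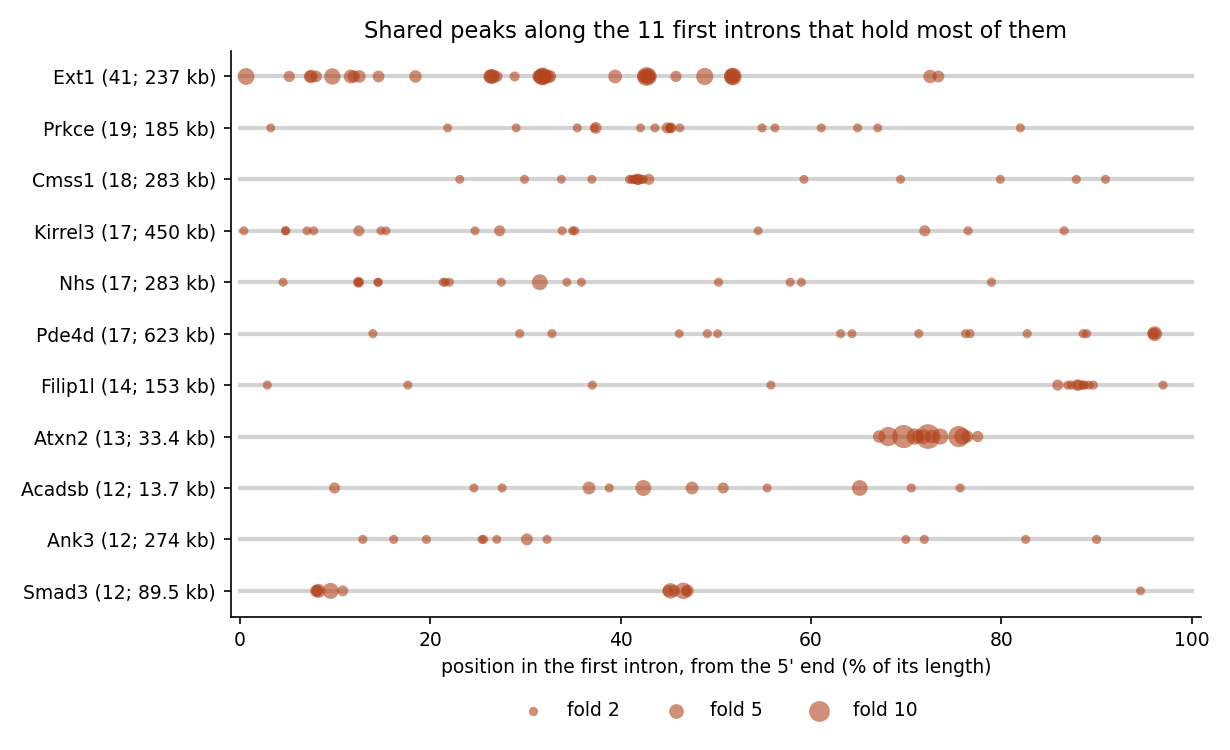
Shared peaks along the 11 first introns that hold most of them, placed by position from the 5′ end as a percent of the intron's length (x axis); each label gives the gene, its number of peaks and its intron length, and the area of a point is the lower fold of the replicates. The 13 Atxn2 peaks stand close together, those of Ext1 lie mostly in the 5′ 50%, and those of Prkce and Pde4d are spread.

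Per length, first introns held slightly more shared peaks than later introns. The density was 15.6 per Mb in first introns (exact Poisson 95% interval 15.1 to 16.1; 3503 peaks over 224.5 Mb of deep length) and 14.6 per Mb in later introns (14.3 to 14.9; 9148 peaks over 627.1 Mb). Within genes, a fit conditional on the peaks of each gene gave a ratio of 1.07 (95% interval 1.01 to 1.14, p = 0.0259, n = 4453 genes), with 3390 first-intron peaks against 3275 given by length. Counting error alone is covered by the Poisson intervals, and the depth of the libraries is unknown.

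That small ratio depended on what it was set against and on the fit. Against intron 2 alone it was 1.00 (0.917 to 1.09; n = 3257 and 1836 peaks), and in genes that no other gene overlaps it was 1.03 (0.924 to 1.15; n = 1037 and 2308 peaks). With peaks within 1 kb of each other counted once it was 1.05 (0.995 to 1.11), and in the replicate 2 list alone 1.02 (0.998 to 1.05). By intron number, the density was 15.6 per Mb in intron 1, 14.4 in intron 2, 13.8 in intron 3 and 15.5 in intron 4, and ran from 13.6 to 15.9 in introns 5 to 10. Last introns had 13.3 per Mb. The replicate lists held 372 (replicate 1) and 332 (replicate 2) peaks per Mb in first introns and 368 and 326 in later introns.

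Intron length, a split chosen after the data were seen, separated the classes more clearly. Among introns of 20 to 50 kb, first introns had 19.4 peaks per Mb and later introns 14.2 (ratio 1.37, 1.21 to 1.54, Poisson fit with gene-clustered variance, adjusted p = 1.88e-06 over 7 length classes, n = 1719 and 3644 introns). At 50 to 100 kb the densities were 19.7 and 14.0 (ratio 1.41, 1.19 to 1.66, adjusted p = 0.000152, n = 593 and 1181 introns). Below 5 kb the order was the other way round, with 15.1 per Mb in first introns against 17.8 in later introns at 1 to 5 kb. In the shared list that difference did not pass the test (ratio 0.850, Poisson fit, adjusted p = 0.121, n = 7186 and 69581 introns). Above 200 kb the densities were 7.15 in first introns and 7.70 in later introns.

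Each replicate list alone had the same direction, with ratios at 20 to 50 kb of 1.30 in replicate 1 and 1.16 in replicate 2, and at 50 to 100 kb of 1.25 and 1.22. At 1 to 5 kb the ratios were 0.837 (0.802 to 0.873) in replicate 1 and 0.872 (0.834 to 0.911) in replicate 2. Under 1 kb they were 0.721 (0.648 to 0.802) and 0.678 (0.606 to 0.757). These intervals all lie below 1. The classes compare different genes. Within genes that have first and later introns of 1 to 5 kb, the shared-list ratio was 0.894 (0.720 to 1.11, n = 689 genes). Under 1 kb it was 1.07 (0.575 to 1.98, n = 77 genes). Among genes that have both a first and a later intron of 20 to 50 kb, the ratio within genes was 1.16 (0.949 to 1.42, p = 0.146, n = 260 genes). At 50 to 100 kb it was 0.957 (0.724 to 1.27, p = 0.758, n = 85 genes). At 100 to 200 kb, where the densities were 13.3 per Mb in first introns and 11.2 in later introns, it was 1.51 (1.118 to 2.04, adjusted p = 0.0510 over 7 classes, n = 30 genes). The RNA level of the genes was not measured in the files used, and its part in the difference between length classes was not tested.

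**Figure D3:**
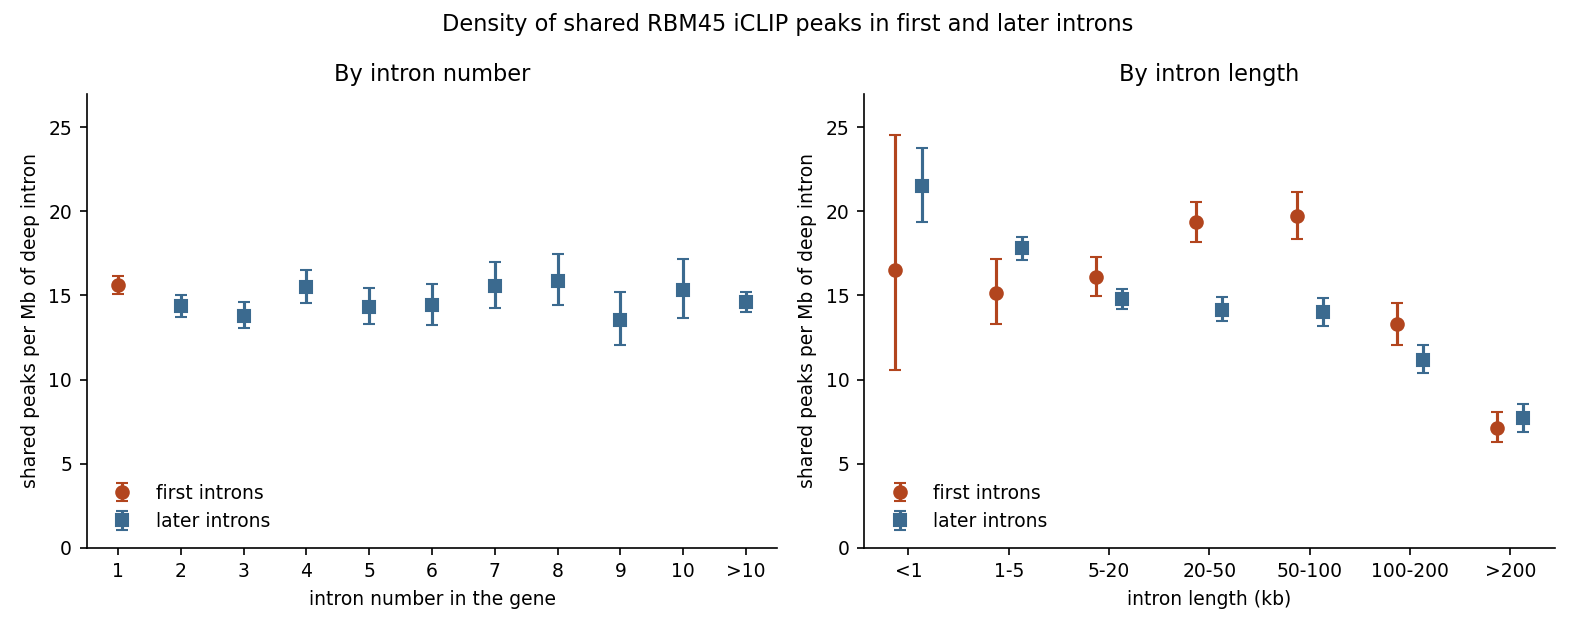
Shared peaks per Mb of deep intron (y axis) by intron number (left; intron 1 in red, later introns in blue) and by intron length in kb (right; first introns in red left of later introns in blue), with exact Poisson 95% intervals. First introns stand at 15.6 per Mb among the other numbers, and above later introns at 20 to 50 kb and 50 to 100 kb.

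Density also went down with distance from the transcript start, and more so in first introns. In tiles of 5 kb within 10 kb of the start, first introns had 17.4 peaks per Mb and later introns 18.5. From 10 to 25 kb the values were 18.4 in first introns and 17.3 in later introns, and from 25 to 50 kb 17.6 and 17.1. From 50 to 100 kb they were 13.5 and 16.8, from 100 to 200 kb 9.87 and 15.1, and beyond 200 kb 3.92 and 8.47. At equal distance class the ratio of first over later introns was 0.911 (0.845 to 0.981, p = 0.0134, n = 284336 tiles), below 1, whereas without distance classes it was 1.07 (0.994 to 1.15). With the gene as a stratum as well it was 0.984 (0.915 to 1.06). Tiles far from the start in first introns come only from very long first introns.

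**Figure D4:**
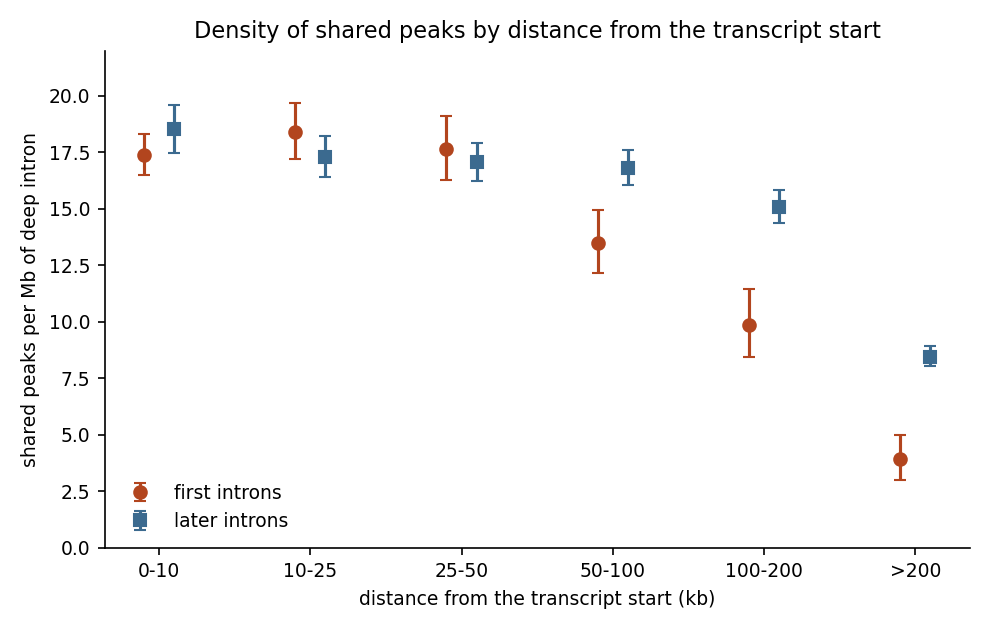
Shared peaks per Mb of deep intron (y axis) by distance of 5 kb tiles from the transcript start (x axis, kb), for first introns (red circles) left of later introns (blue squares), with exact Poisson 95% intervals. The classes overlap up to 50 kb, and first introns are lower beyond it, at 3.92 against 8.47 per Mb past 200 kb.

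Most of the peaks were far from the splice site. The median distance from the 5′ splice site was 14.8 kb, with a 10th percentile of 1.32 kb and a 90th of 77.3 kb. The median distance to the 3′ splice site was 16.5 kb. Within 1 kb of the 5′ splice site lay 8.11% of the peaks, within 10 kb 40.6% and within 100 kb 93.2%. The 5′ 50% of the intron held 52.2% of first-intron peaks, an odds ratio to deep length of 1.09 (1.00 to 1.195, p = 0.0435, n = 3495 peaks). It held 52.3% of later-intron peaks, an odds ratio of 1.10 (1.05 to 1.16, p = 0.000132, n = 9144 peaks). The difference between the classes was not significant (ratio of odds 0.994, 0.900 to 1.10, p = 0.914, n = 12639 peaks). In the replicate 2 list alone the first-intron odds ratio was 0.984. In introns of at least 20 kb, the first 10% of the intron held 13.3% of first-intron peaks (12% to 14.7%) and 10.98% of later-intron peaks (10.02% to 12.03%). The last 10% held 8.73% of first-intron peaks and 8.01% of later-intron peaks.

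First introns before the start codon, which lie in the 5′ untranslated part of the gene, had 14.7 peaks per Mb (13.8 to 15.6, 1017 peaks). Those after it had 16.01 (15.4 to 16.7, 2486 peaks). For later introns the values were 10.99 before the start codon and 14.8 after it. No test was run on this split.

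Replication was about as frequent in first as in later introns. Of the replicate 2 peaks at most 100 bp wide and equally deep, 4.70% in first introns (4.55% to 4.85%) and 4.48% in later introns (4.39% to 4.57%) were in the shared list. With classes of the −log10 p as a covariate the odds ratio was 1.03 (0.981 to 1.08, p = 0.240, n = 74581 and 204327 peaks).

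Some peaks stood in runs. Neighbouring peaks of the same first intron had a median gap of 4.56 kb over 1698 pairs, against 2.78 kb over 3043 pairs of the same later intron, and 28.6% of the first-intron gaps and 35.5% of the later-intron gaps were at most 1 kb. With peaks up to 1 kb apart linked, the 3503 peaks formed 3017 runs, and 93 runs of at least 3 held 377 peaks (10.8%). In later introns 193 such runs held 731 peaks (7.99%). First-intron peaks in runs of at least 3 had a median lower fold of 2.88 and a median width of 39 bp, against 1.91 and 30 bp for single peaks. The deposited pairs add to such runs where 1 broad replicate 1 peak overlaps several replicate 2 peaks: 95 first-intron peaks (2.71%) share their replicate 1 partner with another, against 254 (2.78%) of later-intron peaks.

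The longest run lay in Atxn2, which encodes ataxin 2, an RNA-binding protein. Its 13 peaks all stood within 3.51 kb (chr5:121734709-121738218, plus strand), 22.5 to 25.9 kb into an intron of 33.4 kb. Their folds ran from 3.27 to 28.8 in replicate 1 and from 2.94 to 19.1 in replicate 2, each with its own replicate 1 partner. A further 3 shared peaks in that intron are over 100 bp wide and are left out by the rule. No shared peak of at most 100 bp lay equally deep in the later introns of Atxn2.

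Other runs were shorter and sat in genes of several functions. Nlk, a kinase that acts on Wnt signalling, had 9 peaks in 1.80 kb, with lower folds from 2.38 to 6.77, paired with 5 replicate 1 peaks. Numbl, a relative of the Notch inhibitor Numb, had 8 in 1696 bp of a 3.21 kb intron, paired with 5 replicate 1 peaks, and Ubtd1 had 8 in 1.79 kb. Among runs of at least 4 peaks, Ext1 held 2 runs of 8 and 1 run of 4.

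Gene by gene, few first introns of the shared list were called as departing from their length. Each of 4453 genes was tested by a two-sided exact binomial test of its first-intron peaks against the share of its deep length, with Benjamini-Hochberg adjustment over all of them. More than length gives were called in 4 genes (0.0898% of those tested) and fewer in 0. Of the tested genes, 2204 had exactly 1 deep intronic peak and only 673 had at least 5. With so few peaks most genes could hardly be called, so an uncalled gene is not shown to follow its length. At an unadjusted p under 0.05 there were 91 genes with more and 24 with fewer. A further 77 genes, with 113 peaks, have no later deep intron and were not tested.

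Atxn2 had 13 first-intron peaks and 0 later, where 3.99 are given by length (adjusted p = 0.000957, exact binomial test). Tbc1d5, a Rab GTPase-activating protein of the retromer pathway, had 9 and 8, where 1.38 are given (adjusted p = 0.00459, exact binomial test). Pi4ka, a phosphatidylinositol 4-kinase, had 6 and 0, where 0.882 are given (adjusted p = 0.0150, exact binomial test). Numbl had 8 and 3, where 1.74 are given (adjusted p = 0.0465, exact binomial test). Tcof1, a nucleolar protein, came next with 5 and 1 and missed the threshold (adjusted p = 0.0569, exact binomial test). The test counts every peak as independent, and with peaks within 1 kb counted once none of the 4453 genes was called. With each replicate 1 peak counted once, 3 genes with more were called. Of the 4 genes, only Atxn2 was also called in both replicate lists, with 27 and 24 first-intron peaks where 11.97 and 11.7 are given. Numbl had 4 in replicate 1 and 12 in replicate 2, where 3.17 are given in each list.

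On the side of fewer, no gene passed, and the smallest p-values belonged to Plekhm2 (0 first-intron and 5 later peaks), Map3k4 (0 and 8), Dcaf7 (0 and 5), Bach2 (0 and 19) and Schip1 (1 and 4). Bach2, a transcription repressor of lymphocytes, stands out in the replicate lists. They held 0 and 0 peaks in its first intron, which has 22.9% of its deep length, and 155 (replicate 1) and 194 (replicate 2) in its later introns.

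The longer replicate lists gave more calls. By the same test, more first-intron peaks than length gives were called in 144 of 12439 genes (1.16%) in the replicate 1 list and 113 of 12479 (0.906%) in the replicate 2 list, and fewer in 126 (1.01%) and 96 (0.769%). In both lists, 36 genes (0.316% of 11392) had more and 64 (0.562%) had fewer, while 1 gene went opposite ways. Of the 64, 36 had no first-intron peak in either list. A shared peak of the set was found in 31 of the 36 genes with more and in 10 of the 64 with fewer. The shared list is drawn from the same 2 lists that gave the calls, so these counts are no separate support. Over all genes the share was 37.5% for first introns with 20 to 100 kb of deep length and 50.3% above 100 kb. With peaks within 1 kb counted once, 2 genes with more (0.0176%) and 21 with fewer (0.184%) were called in both lists, all of them among the 36 and the 64. The genes named next are the 8 with the smallest larger p of the 2 lists in each direction, chosen after the values were seen.

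Among the genes with more, Nkain2, which encodes a protein that interacts with the sodium pump, had 155 (replicate 1) and 245 (replicate 2) first-intron peaks, where length gives 83.7 and 130. Its adjusted p was 1.41e-20 in replicate 1 and 1.39e-35 in replicate 2 (exact binomial test). Ccser1 had 43 and 53, where 14.8 and 19.9 are given. These 2 genes were also called with nearby peaks counted once.

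Creb5, a leucine-zipper transcription factor, had 81 and 66 where 42.8 and 30.7 are given, and Fam49b had 87 and 95 where 65.2 and 69.5 are given. Hspg2, the heparan sulfate proteoglycan perlecan, had 42 and 38 where 21.3 and 20.4 are given, yet 0 peaks of the set in that intron. Acadsb, Ptprm (a receptor tyrosine phosphatase) and Thsd7a complete the 8. Creb5, Fam49b, Hspg2, Acadsb, Ptprm and Thsd7a lost their calls with nearby peaks counted once.

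Among the genes with fewer, Rbms3, an RNA-binding protein, had 10 (replicate 1) and 8 (replicate 2) first-intron peaks, where length gives 147 and 124. Its later introns held 545 and 462. The first intron was empty in both lists in Maml2, a Notch coactivator, where 46.0 and 39.6 are given, and in Klf12, a zinc finger repressor, where 45.0 and 59.9 are given. Palm2 and Rgl1 were also empty there, as was Bach2.

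Frmd4a had 51 and 20 where 144 and 64.8 are given, and Slc24a3, a cation exchanger, 2 and 4 where 36.6 and 43.7 are given. All 8 of these genes kept their call with nearby peaks counted once. The chosen transcript is not the only one of such genes. A second coding transcript of the basic set starts inside or beyond intron 1, and so lacks part or all of it, in 51 of the 64 genes with fewer (79.7%, Wilson 95% interval 68.3% to 87.7%), all 8 named ones included. The share was 6 of 36 (16.7%, 7.87% to 31.9%) for genes with more, among them 4 of the 8 named (Nkain2, Ccser1, Creb5 and Fam49b). It was 25.7% for genes with a peak of the set, 23.3% of all 18667 genes and 35.2% of the 921 genes with at least 50 kb of deep first intron. The genes called have long first introns, with medians of 84.1 kb of deep length for more and 53.2 kb for fewer. Which transcript the cells use was not measured in these files.

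**Figure D5:**
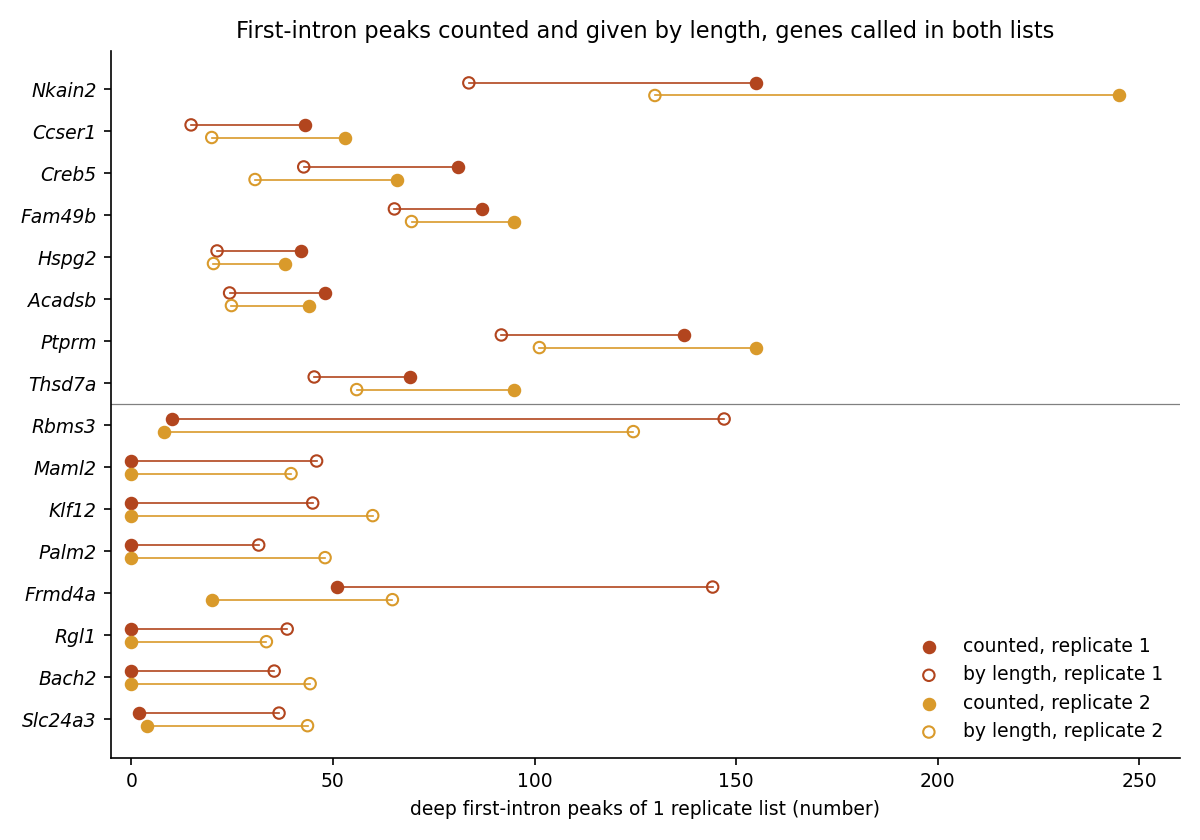
Deep first-intron peaks of each WT CLIP replicate list (x axis, number) in the 8 genes called with more (above the line) and the 8 called with fewer (below) in both lists; filled points are the peaks counted, open points the number given by length, red for replicate 1 and yellow for replicate 2. Counted values lie right of the open points above the line and left of them below it, at 0 in both lists for Maml2, Klf12, Palm2, Rgl1 and Bach2.

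Lists of genes by function are described by how many of their first introns held a peak, beside 9.67% of all first introns. The lists were chosen with earlier results of these data known, so their counts and densities only describe the lists and test nothing. Apart from short housekeeping genes, the 7 lists given here hold genes with longer first introns, with list medians of 10.6 to 63.2 kb of deep length against 2.96 kb over all genes. The share over all genes was 37.5% for first introns with 20 to 100 kb of deep length and 50.3% above 100 kb. The density over all genes also differs by length, at 19.5 per Mb for 20 to 100 kb and 10.1 per Mb above 100 kb. The housekeeping genes, with a median of 0.743 kb, had a peak in 1 of 22. Signalling kinases and phosphatases had a peak in 14 of 30 genes, with 78 peaks at 35.1 per Mb against 15.6 per Mb over all. Prkce led with 19, followed by Nlk (9), Ptprm (9), Ptprg (8), Abl1 (7) and Egfr (5). Prkca and Ptk2 were among those with none.

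Dock4, an activator of the small GTPase Rac, had 8 peaks, as had Trio, and Vav3 had 7. Axon guidance and adhesion genes had one in 13 of 35, at 9.47 per Mb, led by Cadm1 (8), Cdh13 (5) and Efna5 (4). Robo1, Robo2 and Nrxn3 had none. Extracellular matrix and heparan sulfate genes had one in 11 of 28, at 54.0 per Mb, where 41 of the 68 peaks are those of Ext1 and 7 those of the glypican Gpc6.

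Cytoskeletal genes had a peak in 11 of 28, with 12 in Ank3 and 3 each in Actn1 and Daam1. Transcription factors had one in 8 of 30, with 12 in Smad3, 8 in Maml3 and 5 in Rora, and chromatin regulators in 10 of 30, none above 3 (Hdac4). RNA-binding and splicing proteins had one in 5 of 39, which were Atxn2 (13), Atxn1 (4), Celf2 (4), Khdrbs3 (2) and Rbfox2 (2). Rbm45 itself, whose transgene is expressed in these cells, had none.

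None of 13 neuronal marker genes had a first-intron peak, against 9.67% of all first introns. The share was 11.9% over all genes with 5 to 20 kb of deep length, and the marker median is 14.5 kb. Stmn2, Elavl4, Snap25, Gap43 and Rbfox3 have 32.0 to 97.2 kb each, and the share over all genes with 20 to 100 kb was 37.5%. The 13 hold 0.295 Mb of deep first intron, at 0 peaks per Mb against 15.6 per Mb over all genes. Intronic peaks in both replicate lists were found in 11 of them, and in 11770 of all 18667 genes. Such peaks were found in 3588 of the 4565 genes with 5 to 20 kb of deep first intron. With 20 to 100 kb the count was 2118 of 2248 genes. Map2 had 76 (replicate 1) and 28 (replicate 2) intronic peaks and Syt1 31 and 27, while Nefl and Nefm had 0 in either list. Astrocyte, microglia, progenitor and fibroblast markers had no first-intron peak in 7, 6, 4 and 8 genes. These lists have short first introns, with medians of 0.57 to 2.96 kb of deep length. Over all genes with under 5 kb, only 242 of 11508 had a peak. The astrocyte gene Slc1a3 had 57 (replicate 1) and 40 (replicate 2) intronic peaks. Mbp of oligodendrocytes had 1, and the endothelial receptor gene Flt1 had 5, with 124 and 147 intronic peaks in the lists. Peaks depend on RNA level as well as on binding, so these counts do not check the cell type.

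Peaks just inside and outside the rule differed little from their neighbours. First-intron peaks of 91 to 100 bp (29) had a median lower fold of 4.74, and those over 100 and up to 110 bp (18), which are left out, 4.66. All 139 wider deep first-intron peaks had a median of 6.49. Peaks 100 to 200 nt from an end of the intron (67) had a median of 1.92, and the 62 left out within 100 nt of a splice site 1.93.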

How the data were processed

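The build mm10 and the tools deepTools 3.2.1, Novoalign 3.09.00, HOMER 4.11.1, bedtools 2.25.0 and MACS2 2.1.1.20160309 are named, with no role, per the submitters' processing notes. The authors deposited a peak list per WT CLIP replicate (387749 and 344700 distinct peaks) and their shared list, with a cutoff of 0.005 on p in the peak names. Every deposited peak has a score, a fold (a ratio over the peak caller's background) and a −log10 p, all by the authors. The score was checked and ranks nothing here. The shared list is filed under an input sample; by its peak names it pairs WT CLIP replicate 2 with replicate 1 peaks. A deposited count table has 8 library columns whose names match no labels, and they were not used.

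Repeated lines were removed. Peaks were placed by midpoint on GENCODE M21, each position given to 1 gene of its strand (the shortest transcript span). Densities carry exact Poisson and shares Wilson 95% intervals, over peaks, for counting error only; depth is unknown. The density ratio was fitted conditional on each gene's peaks with gene-clustered variance, and genes were tested by exact binomial tests with Benjamini-Hochberg adjustment at 0.05. Fits over introns, tiles and peaks (numpy 2.4.6, scipy 1.17.1, statsmodels 0.14.6) had gene-clustered variance, with Wald tests, two-sided. The fit was tested on simulated data. Named were the 10 genes with most peaks (ties included), the 10 strongest peaks (1 per gene) and the 5 genes of smallest p per direction. The members and lists were chosen with earlier results of these data known. Sequences are GENCODE M21 transcripts. Some genes and lists are not reported here.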

Additional observations from a re-analysis of the deposited data

How the results depend on the processing

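No paired analysis was possible because the 2 WT CLIP replicates form 1 group and the results come from peak lists. Of 33 alternatives of the first over later density ratio, which was 1.07, 17 kept it above 1 with a p under 0.05, from 1.03 to 1.41. It lost the threshold with peaks of at most 40 bp (1.05), at least 5-fold (1.13), a −log10 p of at least 5 (1.01), overlap of 50% of each peak (1.06), no overlapping genes (1.03), introns of at most 50 kb (1.02), no gene stratum (1.07) and, chosen after seeing the data, nearby peaks counted once (1.05). It was 1.00 against intron 2 and 0.984 with distance classes, and 1.02 and 1.03 without a replicate. By length class, also chosen after seeing the data, it was 0.767 under 1 kb, 0.850 at 1 to 5 kb and 1.09 at 5 to 20 kb. It was 1.37 at 20 to 50 kb, 1.41 at 50 to 100 kb, 1.19 at 100 to 200 kb and 0.929 over 200 kb. The cause was not tested.

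Genes called with more were 4, against 7 with no width limit, 113 to 144 in 1 replicate list and 36 in both lists. Those with fewer were 0, against 96 to 126 and 64. With nearby peaks counted once they were 0 with more in the shared list, and 2 with more and 21 with fewer in both lists. The odds ratio of the 5′ 50% ran from 0.984 to 1.07 in single lists and was 1.06 over 2000 nt from splice sites. The ratio at equal distance was 0.911 and became 1.07 without distance classes. The log2 fold difference passed 0.05 with replicate 2 folds (0.037, 95% interval 0.0017 to 0.0721). Among first-intron peaks that differ from their windows in motif count, the percent with more motifs in the peak fell to 47.9 for DRACH, 44.4 for GAC and 42.1 for UGU with windows at 200 nt, against 61.5, 54.5 and 61.0 at 500 nt, and was 0 for UGU in the peaks at least 5-fold, of which 3 differ. Unknown depth limits every density and every absent peak.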
